A study of Mus musculus with 11 samples.

Results

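Control CD24+ and control CD172a+ classical dendritic cells (cDCs) of mouse spleen were compared on 7 of the 11 arrays of the series. The arrays were taken by title, 3 of CD24+ cDCs (replicates 1 to 3) and 4 of CD172a+ cDCs (replicates 1 to 4). All 7 samples came from C57BL/6 mice with the genotype Zeb2(fl/fl) and no Cre transgene, so both groups carried floxed Zeb2 and neither was from a plain wild type. The other 4 arrays, of CD172a+ cDCs from Zeb2(fl/fl);CD11c-Cre(tg) mice, took no part in the main comparison. Cells were sorted by flow cytometry from spleens digested with collagenase B and DNase I. The age and sex of the mice, pooling of animals and the gates beside CD24 and CD172a are not given in the sources used here. The labels do not tell whether the replicates are separate animals, and p-values therefore reflect only how these samples spread, which may be a technical spread. Of 30177 probe sets, those annotated to 1 gene symbol gave 19938 genes, all of which were tested.

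Dendritic cells take up antigen, sense microbes and present peptides to T cells. Classical dendritic cells fall into cDC1, which depend on the transcription factors IRF8 and BATF3 and excel at presenting antigen of dead cells on MHC class I to CD8 T cells, and cDC2, which depend on IRF4 and are known for priming CD4 T cells. In mouse spleen cDC1 are known by CD24, CD8a and XCR1, and cDC2 by CD172a (SIRPa), CD11b and CD4.

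Levels below are the deposited log2 expression values, and a difference is CD24+ minus CD172a+ on that scale from limma, so that 1 is a 2-fold change. A gene passed, rose or was higher or lower where the adjusted p, over all genes, was below 0.05. The arrays also fell into 2 sets, with CD24+ replicate 1 and CD172a+ replicates 1 and 2 in set 1, and the other 4 arrays in set 2. Principal component 1 of the 7 arrays (47.82% of their variance) separated the subsets, and component 2 (31.77%) separated the sets. No label names the sets. They were read from earlier results of these same values, so the 2869 genes (14.4%) that differed between them are a description, and using them as a block lowers the residual spread in a way that the design did not fix. Differences are from the fit with the set as a block, and every gene given below as passed also passed without the block and with each of the 7 arrays left out in turn, unless stated. RMA values shrink near background, so a fold is not an exact ratio where one group mean is under the median gene (5.49 in CD24+ and 5.52 in CD172a+ cDCs). In sorted bulk samples, fewer cells expressing a gene and less RNA per cell cannot be told apart.

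Some defining markers of other cells lay below the median gene in both subsets, while other genes on lists for such cells were high in CD172a+ cDCs. The B cell gene Cd79a read 2.84 to 3.51 over the 7 arrays, the NK cell genes Ncr1 and Klrb1c 3.98 to 4.66 and 2.65 to 3.41, and the neutrophil gene Ly6g 2.68 to 3.24. None of these is a marker of monocytes or splenic macrophages. The T cell gene Cd3e lay around the median gene at 5.16 to 5.76. Siglech of plasmacytoid DCs (pDCs) read 5.03 to 6.43, from below the median gene to above it. In CD172a+ cDCs, Klrd1 and Cd7 of the NK list read 10.12 to 11.31 and 9.78 to 10.93, Cd22 of the B cell list 7.70 to 8.88, Lair1 of the pDC list 8.70 to 9.68 and Adgre1 of the monocyte list 8.66 to 9.38. Summed over linear values, the monocyte list read 7720 to 9890 in CD24+ and 10900 to 14200 in CD172a+ arrays, the NK list 806 to 1150 and 2820 to 4940, the B cell list 568 to 726 and 1040 to 1700 and the pDC list 1980 to 2250 and 2470 to 3390, in each case without overlap. The neutrophil list (368 to 377 and 394 to 529) and the erythroid and platelet list (450 to 487 and 499 to 701) did not overlap either. The T cell list overlapped (551 to 669 and 628 to 754). Splenic macrophage markers overlapped too (1010 to 1860 and 1600 to 3320), with 9 of 21 members higher in set 2 and none lower there. C1qc, a chain of complement C1q made by macrophages, read 5.09, 6.13 and 6.15 on the CD24+ arrays and 6.01, 5.93, 8.92 and 9.16 on the CD172a+ arrays. It was lower in CD24+ cDCs with the block, although 1 CD172a+ array or more lay below CD24+ replicates 2 and 3, and did not pass without the block. The part of such cells in the differences below was not tested.

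Between the subsets 2346 of 19938 genes passed (11.8%), 1292 higher in CD24+ cDCs (6.48%) and 1054 lower (5.29%). Every count of list members below is to be read beside these shares. At least a 2-fold difference was found for 762 genes (3.82%), 368 higher (1.85%) and 394 lower (1.98%), at least 4-fold for 76 higher and 133 lower, at least 8-fold for 28 and 38 and at least 16-fold for 15 and 13. The median difference over all genes was -0.02. Without the block on sets 938 genes passed (4.7%), 464 higher and 474 lower, all of them among the 2346. The groups did not overlap for 2904 genes (14.6%), with CD24+ above for 1424 (7.14%) and below for 1480 (7.42%), and for 1739 of the 2346. With CD24+ replicate 2 left out 1441 passed, and with CD24+ replicate 3 left out 1518. Of the 2346 genes, 1164 also passed with every single array left out.

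**Figure D1:**
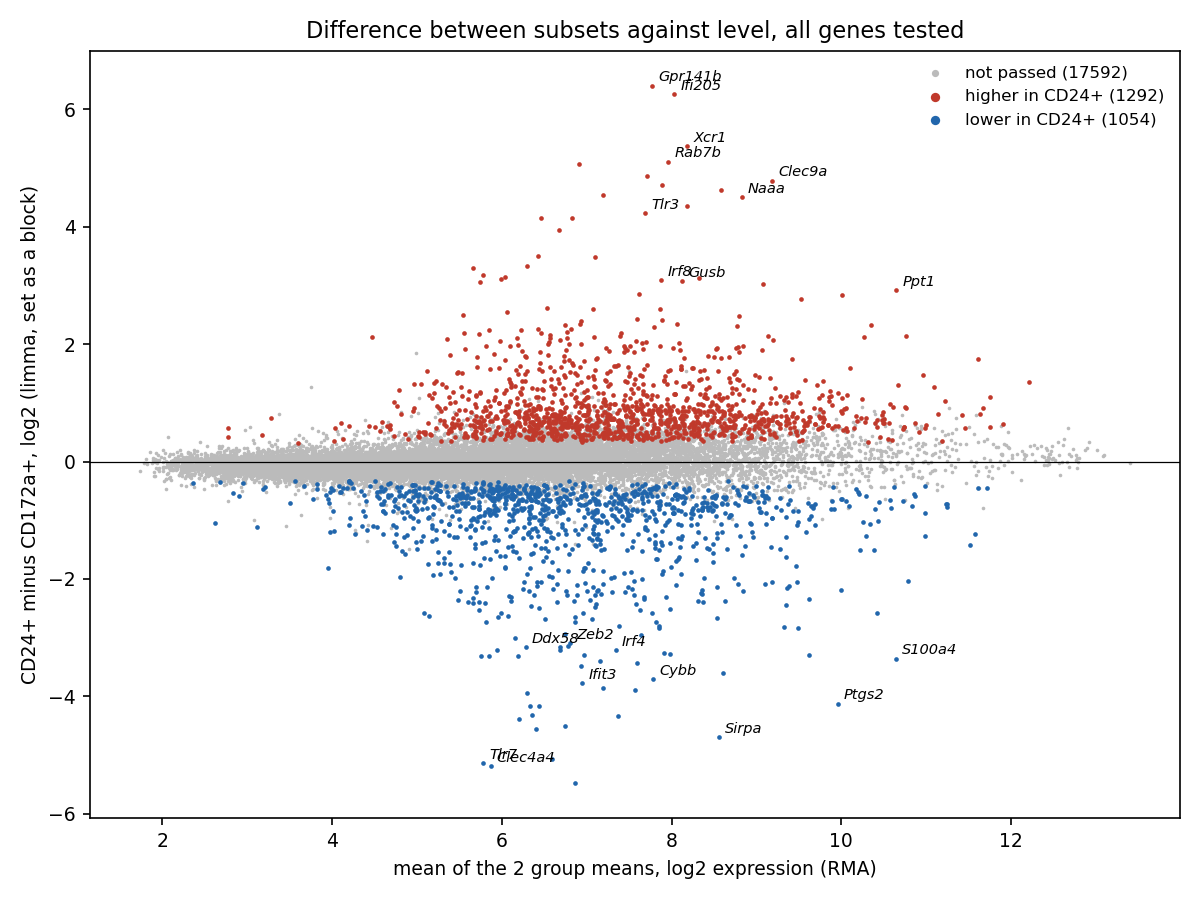
Difference between the subsets (CD24+ minus CD172a+, log2, limma with the set as a block) against the mean of both group means (log2 RMA) for 19938 genes. Red points are the 1292 genes higher and blue points the 1054 genes lower in CD24+ cDCs at adjusted p below 0.05, and grey points did not pass. Gpr141b and Ifi205 lie at the top and Tlr7 and Clec4a4 near the bottom.

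The 8 markers followed for this comparison separated the subsets on every array. For 1 of them, Sirpa, the sort by CD172a set this in advance. Xcr1, the receptor for the chemokine XCL1, read 11.18, 10.71 and 10.79 on the CD24+ arrays and 5.03, 5.19, 5.84 and 5.83 on the CD172a+ arrays, a difference of 5.38 (SE 0.22, adjusted p = 9.94e-06). Clec9a, the receptor for actin filaments exposed on dead cells, read 11.70, 11.75 and 11.41 on the CD24+ arrays and 6.52, 6.17, 6.89 and 7.44 on the CD172a+ arrays, a difference of 4.79 (adjusted p = 2.11e-05). Both were high on all 3 CD24+ arrays with no overlap, and their CD172a+ levels were higher on both arrays of set 2 than on those of set 1. Tlr3, the endosomal receptor for double-stranded RNA, read 10.35, 9.32 and 9.57 on the CD24+ arrays and 5.73, 6.02, 5.24 and 5.52 on the CD172a+ arrays, a difference of 4.23 (adjusted p = 4.93e-06). Irf8, which directs cDC1 development, read 10.67, 8.85 and 8.72 on the CD24+ arrays and 5.91, 5.74, 6.80 and 6.94 on the CD172a+ arrays, a difference of 3.09 (adjusted p = 0.00734). The groups did not overlap for either gene, but Irf8 stood higher on CD24+ replicate 1 than on the other CD24+ arrays. Its difference was 4.85 in set 1 and 1.92 in set 2, and without CD24+ replicate 1 the set 2 arrays give the whole value, 1.92.

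On the CD172a+ side, Tlr7, the endosomal receptor for single-stranded RNA, read 3.25, 3.17 and 3.20 on the CD24+ arrays and 8.34, 8.34, 8.06 and 8.66 on the CD172a+ arrays, a difference of -5.14 (SE 0.143, adjusted p = 3.58e-06). Itgam, the CD11b chain of complement receptor 3, read 4.83, 3.67 and 4.31 on the CD24+ arrays and 8.73, 8.49, 8.12 and 7.99 on the CD172a+ arrays, a difference of -3.95 (adjusted p = 1.06e-05). Both genes lay below the median gene on every CD24+ array and above it on every CD172a+ array. Irf4, the transcription factor of cDC2, read 4.92, 6.13 and 6.17 on the CD24+ arrays and 9.45, 9.27, 8.90 and 8.15 on the CD172a+ arrays, a difference of -3.21 (adjusted p = 0.00172). It was higher on the CD172a+ arrays of set 1 than on those of set 2, without overlap with CD24+ cells, and its difference was -2.38 without CD24+ replicate 1. Sirpa, which encodes CD172a, differed by -4.69 and Cd24a by 2.32. Their products were used to sort the cells, so these values check the sort and are no finding. Itgax, which encodes CD11c, was high in both subsets (9.87 against 10.55), and its difference of -0.55 passed with the block but not without it, nor with any 1 array but CD172a+ replicate 4 left out (adjusted p up to 0.14).

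**Figure D2:**
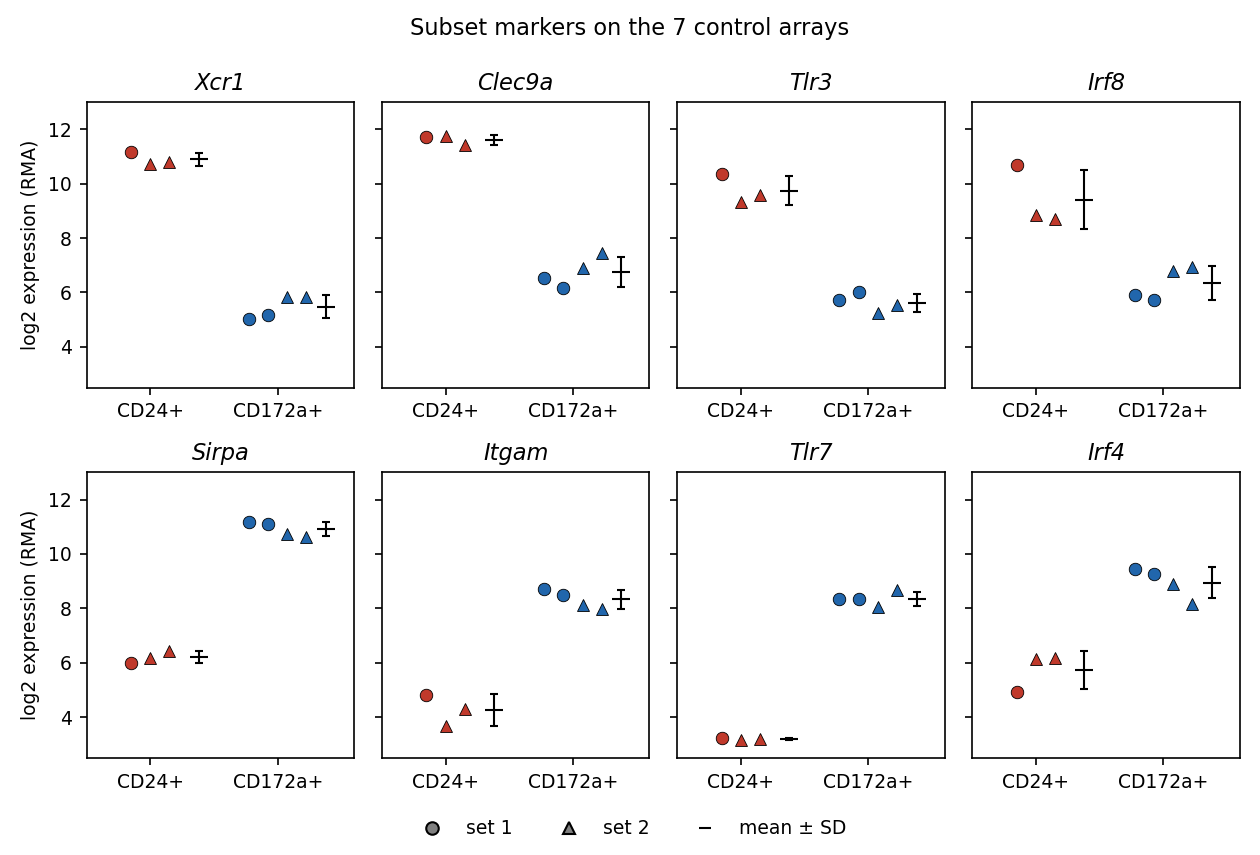
Log2 expression of the 8 markers on each of the 7 control arrays, CD24+ in red and CD172a+ in blue, with circles for set 1, triangles for set 2 and black bars for mean ± SD. Xcr1, Clec9a, Tlr3 and Irf8 are higher on every CD24+ array, and Sirpa, Itgam, Tlr7 and Irf4 on every CD172a+ array. Sirpa encodes CD172a, by which the cells were sorted.

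Of 28 measured core genes of cDC1, 26 were higher in CD24+ cDCs, none was lower and the median difference was 3.42, beside 6.48% of all genes higher. Without the block 23 were higher. The list holds Xcr1, Clec9a, Tlr3 and Irf8 and was chosen with earlier results of these data known. Its count is therefore a description and no independent test of the subsets. The widest difference was that of Gpr141b, an orphan G protein-coupled receptor gene, which read 10.91, 11.09 and 10.95 on the CD24+ arrays and 4.37, 4.58, 4.24 and 5.03 on the CD172a+ arrays. Ifi205, a nuclear interferon-inducible gene of the p200 family, read 11.55, 11.13 and 10.81 on the CD24+ arrays and 4.42, 4.98, 5.14 and 5.07 on the CD172a+ arrays. Both were near background on every CD172a+ array, and the fitted differences were 6.41 and 6.26. Naaa, a lysosomal amidase that breaks down N-acylethanolamines, read 11.48, 10.98 and 10.62 on the CD24+ arrays and 7.01, 6.92, 6.52 and 6.07 on the CD172a+ arrays, a 22.8-fold difference with both means above the median level. Cd8a, the CD8 alpha chain, read 11.31, 10.78 and 10.32 on the CD24+ arrays and 7.11, 6.90, 5.39 and 6.05 on the CD172a+ arrays, a difference of 4.62 without overlap. Rab7b, a late endosomal GTPase, differed by 5.11 and Cd36, a scavenger receptor for lipids and dead cells, by 4.87. Hepacam2, an adhesion molecule of the immunoglobulin family, differed by 4.54 and P2ry14, the receptor for UDP-glucose, by 4.71.

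Other cDC1 genes changed less. Itgae, the CD103 integrin chain, differed by 3.33, Cadm1, an adhesion molecule, by 3.13 and the lysosomal thioesterase gene Ppt1 by 2.92. Wdfy4, which cross-presentation by cDC1 requires, read 11.37, 11.07 and 11.12 on the CD24+ arrays and 10.41, 10.59, 10.35 and 9.95 on the CD172a+ arrays, a difference of 0.92, and Id2, an inhibitor of E proteins, differed by 0.94. Both were well expressed in CD172a+ cDCs too. Batf3, a factor that cDC1 require, read 9.67, 8.70 and 9.12 on the CD24+ arrays and 8.95, 9.03, 8.78 and 8.57 on the CD172a+ arrays, a difference of 0.42 that did not pass (adjusted p = 0.12). Its arrays overlapped between the subsets. Pdlim4 (0.64) did not pass either. Ly75, the antigen uptake receptor DEC205 (1.89), and Fzd1 (1.17) passed with the block but not without it, and Snx22 (1.51, and 0.83 without CD24+ replicate 1) passed neither without the block nor with any of 5 arrays left out.

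Among 31 core genes of cDC2, 24 were lower in CD24+ cDCs, 2 were higher and the median was -1.57, beside 5.29% of all genes lower. Without the block 18 were lower and 2 higher. This list holds Sirpa, Itgam, Tlr7 and Irf4 and was likewise chosen with earlier results known, so its count is a description too. The product of Sirpa was also used for the sort. Clec4a4, an inhibitory C-type lectin receptor known as DCIR2, read 2.89, 3.21 and 3.64 on the CD24+ arrays and 8.91, 8.89, 7.82 and 8.32 on the CD172a+ arrays, a difference of -5.19. Cd4 read 5.09, 5.41 and 5.40 on the CD24+ arrays and 8.91, 9.04, 8.71 and 7.90 on the CD172a+ arrays, a difference of -3.29. S100a4, a calcium-binding protein of motile cells, read 8.50, 9.03 and 9.39 on the CD24+ arrays and 12.53, 12.32, 12.29 and 12.08 on the CD172a+ arrays, a difference of -3.36 with both means above the median level. None of these 3 genes overlapped between the subsets. Csf1r, the receptor for M-CSF, differed by -2.69, Cd209a, a lectin related to DC-SIGN, by -2.37 and Dtx1, a Notch target, by -1.57. Against the direction of the list, Clec12a, an inhibitory receptor for uric acid crystals, was higher in CD24+ cDCs. It read 9.91, 9.83 and 10.09 on the CD24+ arrays and 7.41, 7.45, 7.42 and 8.10 on the CD172a+ arrays, a difference of 2.32 (adjusted p = 0.000122) without overlap. Rbpj, the DNA-binding partner of Notch, was also higher by 0.78. Ccr2 (1.16), Notch2 (0.37), Lyz2 (0.12), Mgl2 (-0.29) and Relb (-0.72) did not pass.

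Of 58 measured transcription factor genes, 4 were higher and 16 lower, with a median of -0.15, and 3 and 8 without the block. Without CD24+ replicate 2 or 3 the number lower was 10. Zeb2, a zinc-finger repressor and the gene deleted elsewhere in the study, read 5.19, 5.08 and 5.52 on the CD24+ arrays and 8.23, 8.23, 8.26 and 8.61 on the CD172a+ arrays, a difference of -3.10 (adjusted p = 1.31e-05). All CD24+ arrays lay far below all CD172a+ arrays. Spib, an Ets factor related to PU.1, differed by -1.94 (-1.25 without CD24+ replicate 1), Prdm1, the repressor Blimp-1, by -1.72, Tbx21, the T-bet factor, by -1.42 and Klf4 by -0.94. Ikzf3, the Ikaros family factor Aiolos, differed by -0.67. Mycl, a Myc family gene of cDC1, was higher by 1.09 with the block and did not pass without it (adjusted p = 0.203). The pDC factor Tcf4 was lower by 0.61 and Bcl11a by 0.60. The call of Tcf4 was lost without CD24+ replicate 1 or 2 or CD172a+ replicate 3 (adjusted p up to 0.107), and that of Bcl11a without CD24+ replicate 1 (0.061) or without the block. Spi1, which encodes PU.1 (-0.21), Ikzf1 (-0.19), Runx1 (0.14), Bcl6 (0.13) and Nfil3 (-0.24) did not pass.

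The Toll-like receptors divided between the subsets. Of 26 measured receptors and adaptors, 4 were higher and 7 lower in CD24+ cDCs, with a median of -0.09, and 3 and 6 without the block. Beside Tlr3, Tlr12, a receptor for profilin of protozoa, was higher, at 7.19, 6.64 and 6.58 on the CD24+ arrays and 4.50, 4.69, 5.21 and 4.91 on the CD172a+ arrays, a difference of 1.97. Hsp90b1, the chaperone gp96 that folds Toll-like receptors, was higher by 0.93. Beside Tlr7, the genes of 2 receptors for bacterial lipopeptides were lower. Tlr1 read 6.50, 5.67 and 6.59 on the CD24+ arrays and 9.58, 9.73, 9.06 and 9.88 on the CD172a+ arrays, a difference of -3.27, and Tlr6 differed by -0.90. Ticam2, the adaptor TRAM of TLR4, differed by -1.63, and Lgmn, a lysosomal protease that processes endosomal Toll-like receptors, by -1.49. Both Tlr1 and Tlr12 kept the subsets apart on every array. Tlr9 (-0.26), Tlr13 (0.38), Myd88 (0.28), Ticam1 (0.29) and Unc93b1 (0.50), which carries nucleic acid receptors to endosomes, did not pass. Tlr2 passed (-0.63) but lost the call without CD24+ replicate 2 or CD172a+ replicate 1 or 4 (adjusted p up to 0.0517), and Tlr8 (-0.63) and Tirap (0.58) did not pass without the block, nor with 5 of the arrays (Tlr8) or 6 of them (Tirap) left out in turn.

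Cytosolic sensors of nucleic acids and inflammasome genes were lower in CD24+ cDCs in 12 of 28 and higher in 2, with a median of -0.44. Without the block 8 were lower and 1 higher. Ddx58, which encodes the RNA helicase RIG-I, read 4.04, 5.08 and 4.96 on the CD24+ arrays and 8.09, 8.42, 7.59 and 7.37 on the CD172a+ arrays, a difference of -3.16 (adjusted p = 0.000672), or -2.46 without CD24+ replicate 1. Ifih1, the related helicase MDA5, differed by -1.09. Nlrc4, which forms the inflammasome that answers flagellin, read 4.84, 4.30 and 4.47 on the CD24+ arrays and 7.07, 7.31, 6.28 and 6.73 on the CD172a+ arrays, a difference of -2.22, and Nod1, a sensor of bacterial peptidoglycan, differed by -2.22. Every CD24+ array lay below every CD172a+ array for these 4 genes. Casp1, the protease of inflammasomes, differed by -1.23 and Nlrp10 by -1.25. Nlrp3 (-1.31) and Sting1 (-0.85), the adaptor of cytosolic DNA sensing, were lower with the block but did not pass without it (adjusted p = 0.121 and 0.489). The p200 genes went both ways, with Ifi205 higher by 6.26 and Ifi203 lower by 1.71. Members of this family are close in sequence, and signal shared between their probe sets was not checked. Mavs (0.03), Aim2 (-0.37), Pycard (0.00) and Il1b (-0.38) did not pass.

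Interferon-stimulated genes, which type I interferon induces against viruses, were lower in 14 of 36 and higher in 4 with the block, and lower in 13 and higher in 1 without it. Their median was -0.55, and -0.23 without CD24+ replicate 1. Rtp4, an interferon-induced chaperone of receptors, read 4.46, 4.30 and 3.51 on the CD24+ arrays and 8.52, 9.06, 8.62 and 8.62 on the CD172a+ arrays, a difference of -4.56. Ifit3, which binds viral RNA together with IFIT1, read 4.99, 5.04 and 5.11 on the CD24+ arrays and 8.51, 9.51, 8.64 and 8.74 on the CD172a+ arrays, a difference of -3.78. Both were high on all CD172a+ arrays and low on all CD24+ arrays. Oas2, which makes the activator of RNase L, differed by -2.68, the helicase gene Ddx60 by -2.64 and Ifit1 by -2.13. Signal shared between the probe sets of Ifit1 and Ifit3 was not checked. The antiviral membrane protein genes Ifitm6, Ifitm1 and Ifitm3 differed by -2.83, -2.33 and -1.23. Mx1 RNA was higher in CD24+ cDCs, a difference of 1.52 (adjusted p = 0.000107). It read 8.05, 7.12 and 7.34 on the CD24+ arrays and 6.34, 6.44, 5.91 and 5.70 on the CD172a+ arrays. Mx1 protein was not measured. The genes Trim30a (1.04), Ly6e (0.91) and Bst2 (0.61), higher with the block, did not pass without it. The interferon pathway genes Irf7 (0.38), Irf9 (0.13) and Stat2 (-0.20) did not pass. Of the 36 genes, 15 were lower in set 2 than in set 1 and 1 was higher.

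**Figure D3:**
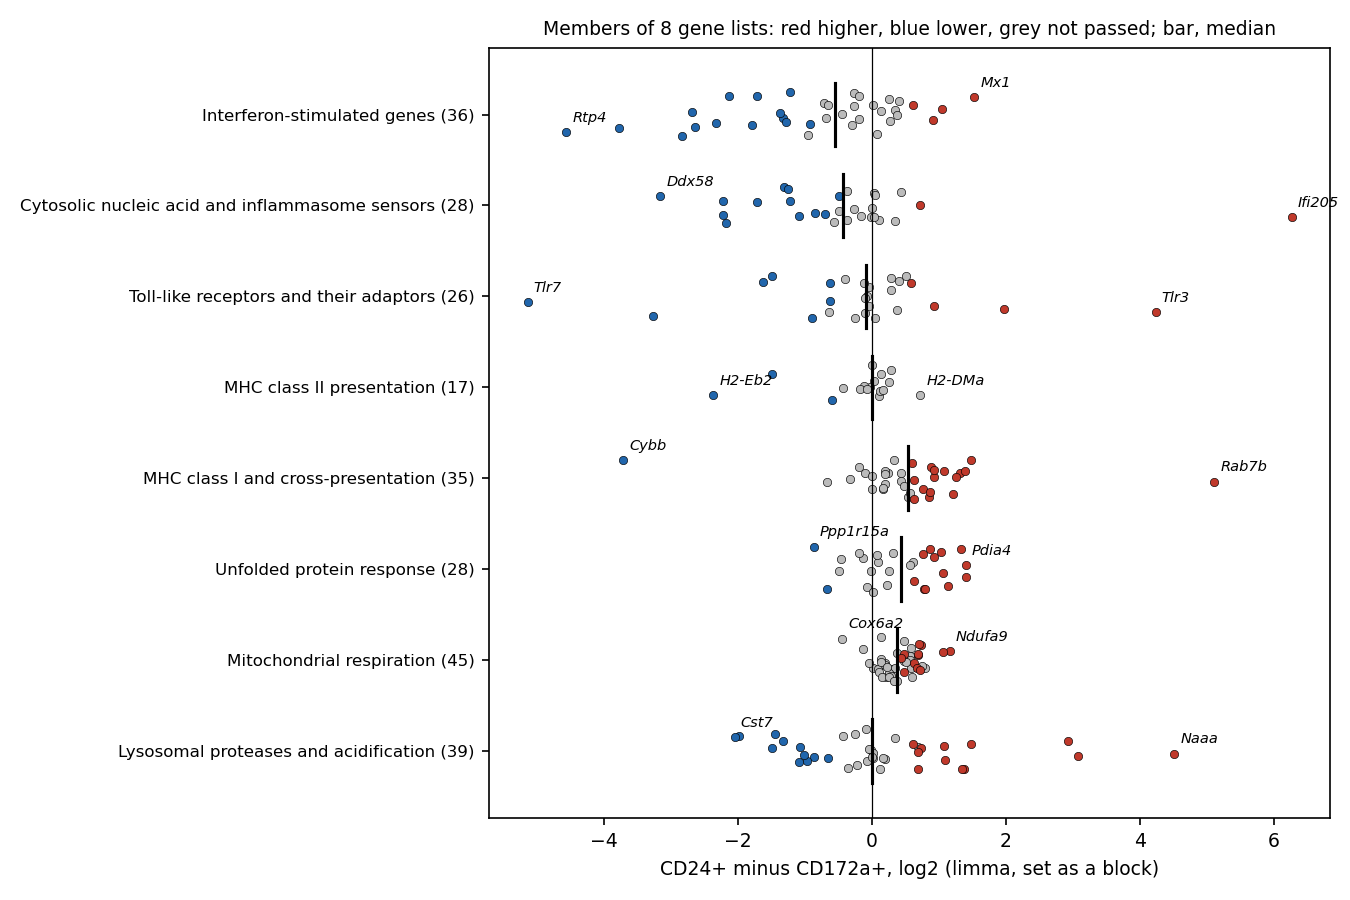
Differences between the subsets (CD24+ minus CD172a+, log2) of the members of 8 gene lists, 1 point a gene, with the number measured after each name and a black bar at the median. Red points were higher, blue points lower and grey points not passed. Interferon-stimulated genes have 14 blue and 4 red points, and members of MHC class I presentation 16 red points and 1 blue.

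Upstream sequences of 6 genes are shown because the element that interferon regulatory factors bind occurs before genes that were lower and before genes that were higher in CD24+ cDCs. These are the 250 bases before the annotated start on the gene's own strand, from the RefSeq table of GRCm38.p6. Capitals mark that IRF element, which reads GAAA, any 2 bases and GAAA again, searched on both strands. Gpr141b and Ifi205 were higher in CD24+ cDCs, and Ifit1, Ifit3, Ddx60 and Cybb were lower. The windows are chr13:19732952-19733201 (minus strand) for Gpr141b, chr1:174031756-174032005 (minus strand) for Ifi205, chr19:34640639-34640888 (plus strand) for Ifit1, chr19:34583279-34583528 (plus strand) for Ifit3, chr8:61927837-61928086 (plus strand) for Ddx60 and chrX:9469325-9469574 (minus strand) for Cybb.
Gpr141b: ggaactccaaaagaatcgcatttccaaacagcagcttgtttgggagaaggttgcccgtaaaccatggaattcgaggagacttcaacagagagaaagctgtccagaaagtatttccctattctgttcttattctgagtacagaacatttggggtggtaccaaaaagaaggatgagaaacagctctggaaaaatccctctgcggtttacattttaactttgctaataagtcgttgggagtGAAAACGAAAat
Ifi205: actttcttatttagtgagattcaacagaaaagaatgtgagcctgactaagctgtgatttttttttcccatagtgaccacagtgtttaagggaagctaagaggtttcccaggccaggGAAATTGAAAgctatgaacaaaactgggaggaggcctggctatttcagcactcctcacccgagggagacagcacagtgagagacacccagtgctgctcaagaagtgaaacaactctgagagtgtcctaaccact
Ifit1: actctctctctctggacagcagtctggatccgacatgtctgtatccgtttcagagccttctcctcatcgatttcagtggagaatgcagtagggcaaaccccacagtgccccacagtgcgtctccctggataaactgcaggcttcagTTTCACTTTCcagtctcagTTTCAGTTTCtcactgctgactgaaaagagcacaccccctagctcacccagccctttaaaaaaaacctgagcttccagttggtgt
Ifit3: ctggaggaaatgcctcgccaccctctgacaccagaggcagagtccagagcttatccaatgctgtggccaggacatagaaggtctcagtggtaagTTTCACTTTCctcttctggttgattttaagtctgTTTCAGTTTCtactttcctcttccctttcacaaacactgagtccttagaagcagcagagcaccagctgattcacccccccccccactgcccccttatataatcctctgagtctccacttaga
Ddx60: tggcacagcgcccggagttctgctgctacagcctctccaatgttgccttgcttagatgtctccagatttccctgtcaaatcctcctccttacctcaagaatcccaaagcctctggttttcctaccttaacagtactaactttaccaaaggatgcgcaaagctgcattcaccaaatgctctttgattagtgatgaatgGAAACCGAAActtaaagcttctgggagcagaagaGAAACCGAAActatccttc
Cybb: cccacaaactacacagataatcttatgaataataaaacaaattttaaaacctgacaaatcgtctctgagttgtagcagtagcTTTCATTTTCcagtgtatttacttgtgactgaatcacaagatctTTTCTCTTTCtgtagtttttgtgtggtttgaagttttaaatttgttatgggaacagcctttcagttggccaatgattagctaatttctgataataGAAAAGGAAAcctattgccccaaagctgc
The windows of Gpr141b and Ifi205 hold 1 such element each, those of Ifit1, Ifit3 and Ddx60 hold 2 and that of Cybb holds 3. The first element of each window begins at -12 in Gpr141b, -134 in Ifi205, -104 in Ifit1, -156 in Ifit3, -53 in Ddx60 and -168 in Cybb, counted from the start.

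Over 15614 promoters of measured genes, chromosome 18 left out, 457 (2.93%) held the IRF element in these 250 bases. It was in 26 of 307 promoters (8.47%) of genes lower in CD24+ cDCs by at least 1, and in 9 of 295 (3.05%) of genes higher by at least 1. Leaving out the interferon-stimulated list, it was in 21 of 296 promoters of lower genes (7.09%). Within that list 13 of 27 promoters (48.1%) held it, of which 5 belonged to lower genes, 2 to higher genes and 6 to genes that did not pass. The PU.1-IRF element, GGAA, any 2 bases and GAAA, searched on both strands as were the motifs below, was in 2.24% of all promoters, in 1.69% of higher and in 2.61% of lower genes, and it overlapped the IRF element in 12 promoters. The E-box CACCTG, bound by Zeb factors, was in 16.6% of all promoters, 18% of higher and 18.2% of lower genes. The AP-1 element TGANTCA was in 6.11%, 7.12% and 6.84%. These shares describe letters in a window and were not tested.

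C-type lectin receptors recognise sugars or self ligands, and 19 of 37 were lower and 7 higher in CD24+ cDCs, with a median of -0.60. Without the block the numbers were 13 and 4. The neighbouring Clec4 genes went in opposite directions. Clec4a1 (-5.07), Clec4a3 (-4.16), Clec4b1 (-3.31) and Clec4a2 (-3.16) were lower, as was Clec4a4. Clec4b2 was higher, at 7.67, 7.76 and 7.44 on the CD24+ arrays and 4.39, 4.31, 4.51 and 4.60 on the CD172a+ arrays, a difference of 3.15. These genes are near relatives, and signal shared between their probe sets was not checked. Clec7a, the beta-glucan receptor Dectin-1, read 6.08, 7.62 and 7.85 on the CD24+ arrays and 9.62, 9.28, 9.55 and 9.32 on the CD172a+ arrays, a difference of -2.37 (-1.70 without CD24+ replicate 1), and Clec4n, the mannan receptor Dectin-2, differed by -2.58. Neither gene overlapped between the subsets. Clec4e, the Mincle receptor, differed by -1.17 and the inhibitory receptor gene Cd72 by -2.15. Clec1a was higher by 2.06. Cd207, the langerin gene, was higher by 1.91 with the block and did not pass without it (adjusted p = 0.0637). Clec4d (-0.87), Clec5a (-0.48) and Mrc1 (-0.85) did not pass.

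Fc and complement receptors bind antibody-coated and opsonised particles, and of 30 measured genes 13 were lower in CD24+ cDCs, none was higher and the median was -0.50. Without the block 5 were lower. Fcer1g, the signalling chain shared by Fc receptors, read 9.28, 8.57 and 9.45 on the CD24+ arrays and 11.93, 12.05, 11.36 and 11.63 on the CD172a+ arrays, a difference of -2.57 (adjusted p = 0.000164). Fcgr4, an activating receptor for IgG, differed by -1.27. The paired receptor genes Pilra and Pilrb1, inhibitory and activating, differed by -2.20 and -2.16. Signal shared between the probe sets of these related genes was not checked. For Fcer1g all CD24+ arrays were below all CD172a+ arrays. Fcgr2b, the inhibitory receptor for IgG (0.32), Fcgr1 (-0.23), Itgb2 (-0.28) and Trem2 (-0.02) did not pass. C1qb (-1.53), C1qa (-0.77) and Fcgr3 (-0.78) passed with the block but not without it, and C1qb lost the call without CD24+ replicate 3 (adjusted p = 0.0538). The calls of C1qa and Fcgr3 were each lost with any of 5 arrays left out (adjusted p up to 0.113 and 0.131). The C1q genes moved with the set as well, as given above for C1qc.

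Uptake and scavenger receptors were mixed, with 6 of 33 higher and 7 lower, a median of -0.09, and 2 and 5 without the block. Clec9a and Cd36 were higher in CD24+ cDCs, as given above. The lower genes included Cd300lf, a receptor for phosphatidylserine and ceramide (-2.46), Lrp1, a large endocytic receptor (-1.14), and Msr1, scavenger receptor A (-0.84). Elmo1, which drives engulfment through Rac, was lower too (-0.81). Itgb3, the beta-3 integrin chain, differed by -1.09. Treml4, a receptor that binds dead cells and is also on the monocyte list, was higher with the block (1.78) and did not pass without it (adjusted p = 0.0915). Axl (-0.49), Timd4 (0.27), Marco (0.06) and Mfge8 (-0.26) did not pass.

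Of 17 measured genes of presentation on MHC class II none was higher and 3 were lower (17.6%, beside 11.8% of all genes passed and 5.29% lower), with a median of 0.00 (-0.15 to 0.11 over the alternatives, and 0.11 without CD24+ replicate 1). H2-Ab1 read 12.42, 12.63 and 12.57 on the CD24+ arrays and 12.57, 12.46, 12.66 and 12.32 on the CD172a+ arrays, a difference of 0.03 (adjusted p = 0.938). H2-Aa (0.11), H2-Eb1 (0.12) and Cd74, the invariant chain (0.13), did not pass either, nor did the transactivator gene Ciita (-0.03). These class II genes were high on all 7 arrays. H2-Eb2, a class II gene of limited expression, was the exception at 6.77, 7.61 and 8.09 on the CD24+ arrays and 9.57, 9.73, 10.20 and 9.57 on the CD172a+ arrays, a difference of -2.37 without overlap. Rfx5, a factor that binds class II promoters, was lower by 0.60 and Lgmn by 1.49.

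Genes of MHC class I loading and cross-presentation were higher in CD24+ cDCs in 16 of 35 and lower in 1, with a median of 0.54, beside 6.48% of all genes higher. Without the block 8 were higher and 1 lower. Between the sets, 10 of the 35 were lower in set 2 and none was higher there. Tapbpl, the peptide editor TAPBPR, read 7.84, 7.70 and 8.09 on the CD24+ arrays and 6.95, 6.94, 6.41 and 5.94 on the CD172a+ arrays, a difference of 1.39, and Pdia3, the ERp57 chaperone of the loading complex, read 10.64, 10.41 and 10.35 on the CD24+ arrays and 9.23, 9.35, 9.25 and 9.28 on the CD172a+ arrays, a difference of 1.21. Neither overlapped between the subsets. Tap2, a subunit of the peptide transporter, differed by 0.85. Its partner Tap1 (1.31) and the immunoproteasome gene Psmb9 (1.26) were higher with the block and did not pass without it (adjusted p = 0.088 and 0.536). Vcp, the ATPase that extracts proteins from the endoplasmic reticulum, differed by 0.88, and Rab43, which cross-presentation by cDC1 uses, by 0.93. Cybb, the gp91phox subunit of the phagosomal NADPH oxidase NOX2, went the other way at 6.05, 5.54 and 5.98 on the CD24+ arrays and 10.29, 10.23, 9.22 and 9.05 on the CD172a+ arrays, a difference of -3.71 (adjusted p = 2.72e-05). Its levels were high on every CD172a+ array, with no overlap. Its partner chain Cyba (0.47) and the cytosolic subunits Ncf1 (-0.33) and Ncf4 (0.19) did not pass, and B2m (-0.10) did not pass.

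Lysosomal genes divided almost evenly, with 12 of 39 higher, 11 lower and a median of 0.00 (0.10 without CD24+ replicate 1). Without the block 9 were higher and 9 lower. Gusb, the beta-glucuronidase, read 9.74, 9.77 and 9.36 on the CD24+ arrays and 6.87, 6.99, 6.35 and 6.29 on the CD172a+ arrays, a difference of 3.07. Ppt1, which removes palmitate from proteins, read 12.09, 12.15 and 12.03 on the CD24+ arrays and 9.31, 9.40, 8.98 and 9.12 on the CD172a+ arrays. Both separated the subsets on every array, as did Naaa. Psap, which gives rise to the saposins that activate lipid hydrolases, was higher by 1.47, Cst3, the protease inhibitor cystatin C, by 1.35, Npc2, a cholesterol carrier, by 1.09 and Ctse, an aspartic protease, by 1.08. On the other side Cst7, cystatin F, read 5.27, 4.83 and 5.69 on the CD24+ arrays and 7.16, 6.80, 7.18 and 7.92 on the CD172a+ arrays, a difference of -2.05, and Gla, the alpha-galactosidase A, differed by -1.99. Ctsc, which activates serine proteases of granules, differed by -1.08, Npc1, the membrane partner of NPC2, by -1.01 and Tfeb, the transcription factor of lysosome formation, by -0.97. The partners Npc1 and Npc2 thus lay on opposite sides. Ctss (-0.07), Ctsb (0.12), Ctsz (-0.22), Lamp1 (-0.36) and Lamp2 (-0.26) did not pass.

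Of 49 Rab and traffic genes 10 were higher and 1 lower (median 0.15), 6 and 0 without the block, and 6 were higher without CD24+ replicate 2 or CD172a+ replicate 1. Rab32, which acts in the formation of lysosome-related organelles, read 9.61, 9.10 and 9.14 on the CD24+ arrays and 7.84, 7.84, 7.16 and 7.44 on the CD172a+ arrays, a difference of 1.80 without overlap. Rab11a, of recycling endosomes, was higher by 1.02 and Rab10 by 0.74. Of 28 genes of the unfolded protein response, 12 were higher and 2 lower (median 0.44), 8 and 1 without the block. Of these 28, 10 were lower in set 2 than in set 1 and none was higher there. Pdia4, a disulfide isomerase, read 8.22, 7.59 and 7.36 on the CD24+ arrays and 6.85, 6.79, 6.12 and 6.02 on the CD172a+ arrays, a difference of 1.40, Creld2, a chaperone induced by stress of the endoplasmic reticulum, differed by 1.33, Manf by 1.06 and the cochaperone gene Dnajc3 by 1.03. Hyou1 (0.79) and Dnajb11 (0.78) were higher too. Eif2ak3, the PERK kinase that senses unfolded proteins, was lower by 0.67. The sensors and factors Xbp1 (0.09), Ern1 (0.07), Atf6 (-0.14), Atf4 (-0.19) and Ddit3 (-0.46) did not pass, nor did the main chaperone gene Hspa5 (0.61).

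Energy metabolism genes had positive medians, 0.29 over 31 genes of glycolysis and the pentose phosphate pathway and 0.38 over 45 of mitochondrial respiration, beside -0.02 over all genes. In glycolysis 10 were higher and 4 lower, but 2 and 3 without the block, and without CD24+ replicate 2 or CD172a+ replicate 2 the number lower was 2. Between the sets, 8 of the 31 were lower in set 2 and 3 higher there. Pfkp, the platelet-type phosphofructokinase, read 8.99, 9.82 and 9.55 on the CD24+ arrays and 7.87, 7.17, 8.45 and 8.14 on the CD172a+ arrays, a difference of 1.42, and Pgk1, a phosphoglycerate kinase, differed by 1.42. The glucose transporter genes Slc2a3 (GLUT3) and Slc2a6 were lower by 1.96 and 1.19. Slc2a3 read 5.58, 5.70 and 5.46 on the CD24+ arrays and 7.96, 7.96, 7.33 and 7.18 on the CD172a+ arrays, without overlap between the subsets. Slc2a1, the GLUT1 transporter, differed by -0.76 and did not pass. In respiration 12 were higher and none lower, and 2 were higher without the block. Between the sets, 12 of the 45 were lower in set 2 and none was higher there, beside 8.66% and 5.73% of all genes. The number higher was 4 without CD24+ replicate 2, 3 without CD24+ replicate 3 and 4 without CD172a+ replicate 2. Sdhd (0.62), Atp5c1 (0.71) and Atp5o (0.70) passed with each array left out but not without the block.

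**Figure D4:**
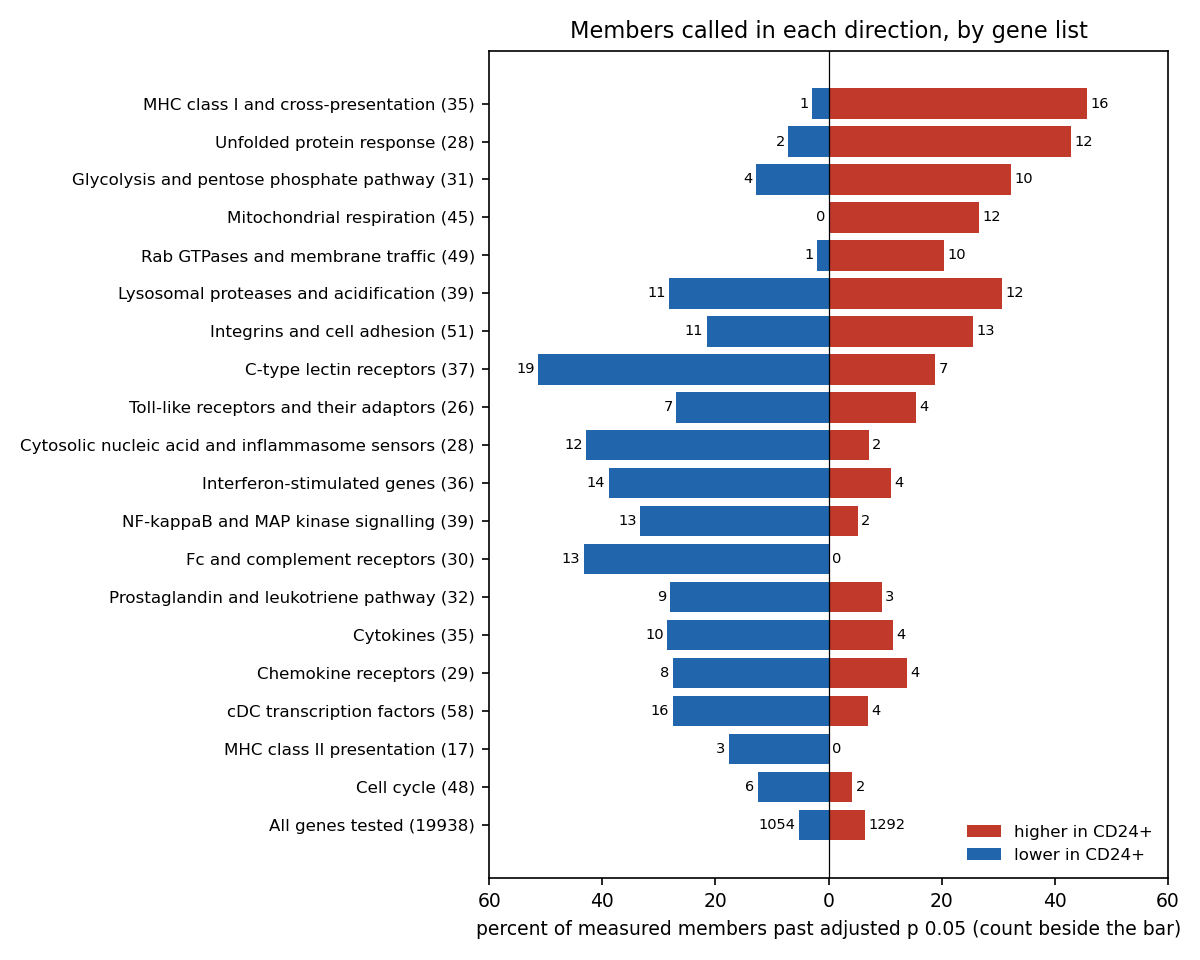
Percent of the measured members of 19 gene lists, and of all genes, that were higher (red, right) or lower (blue, left) in CD24+ cDCs at adjusted p below 0.05, with counts beside the bars and the number measured in brackets. Fc and complement receptors have no red bar and mitochondrial respiration no blue bar, and all genes tested give 1292 higher and 1054 lower.

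In lipid handling 10 of 52 genes were higher and 12 lower (median -0.04), 6 and 5 without the block, and 6 were higher without CD24+ replicate 1. Plin2, which coats lipid droplets, read 9.20, 8.68 and 8.01 on the CD24+ arrays and 6.74, 6.87, 6.76 and 6.36 on the CD172a+ arrays, a difference of 2.03. Plpp1, a lipid phosphate phosphatase, was higher by 4.15, Acadl of fatty acid oxidation by 0.96 and the desaturase gene Fads1 by 0.89. Fabp5, a fatty acid carrier, read 6.28, 6.84 and 7.29 on the CD24+ arrays and 9.23, 8.98, 9.0 and 9.04 on the CD172a+ arrays, a difference of -2.31, and Pltp, a phospholipid transfer protein, differed by -1.85. The groups did not overlap for Plin2 or Fabp5. Slc27a2, a fatty acid transporter (-1.53), Abca9 (-1.58) and Sorl1 (-1.12), a sorting receptor, were lower. The sterol pathway genes Srebf2 (-0.01), Hmgcs1 (0.06) and Insig1 (-0.06) did not pass.

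Prostaglandin and leukotriene genes were lower in 9 of 32 and higher in 3 (median -0.03), 7 and 1 without the block, and 1 was higher without CD24+ replicate 2, CD24+ replicate 3 or CD172a+ replicate 1. Ptgs2, the inducible cyclooxygenase COX-2, read 6.86, 8.26 and 8.65 on the CD24+ arrays and 12.23, 12.22, 11.90 and 11.61 on the CD172a+ arrays, a difference of -4.12 (adjusted p = 0.000385), or -3.30 without CD24+ replicate 1. CD24+ replicate 1 read lowest, and the subsets did not overlap. Pla2g4a, the phospholipase that frees arachidonic acid, differed by -1.52, and Hpgds, a prostaglandin D synthase, by -2.27. Lta4h, which makes leukotriene B4, differed by -1.48, its receptor gene Ltb4r1 by -0.63, the prostaglandin E receptor gene Ptger3 by -2.14 and Pla2g7, which inactivates platelet-activating factor, by -2.73. Tbxas1, the thromboxane synthase, was higher in CD24+ cDCs, at 7.32, 6.12 and 6.79 on the CD24+ arrays and 5.14, 4.97, 5.26 and 5.36 on the CD172a+ arrays, a difference of 1.59 without overlap. Ptger4 (-0.48) and Ptges3 (0.11) did not pass.

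Of 29 chemokine and migration receptor genes 4 were higher and 8 lower (median -0.25, and -0.11 to -0.14 without CD24+ replicate 1 or 3 or CD172a+ replicate 3 or 4), with 5 lower without the block or without CD24+ replicate 2. Beside Xcr1 and P2ry14, Cxcr3, the receptor for CXCL9 and CXCL10, was higher at 8.78, 7.13 and 7.60 on the CD24+ arrays and 5.86, 5.80, 5.37 and 5.55 on the CD172a+ arrays, a difference of 2.32, and Ccr9, the receptor for CCL25, differed by 2.04. Gpr183, the oxysterol receptor EBI2 that positions cDC2 in the spleen, read 8.78, 8.32 and 8.42 on the CD24+ arrays and 10.91, 10.93, 9.89 and 9.95 on the CD172a+ arrays, a difference of -1.78. Ccr6, the receptor for CCL20, differed by -1.47, the chemerin receptor gene Ccrl2 by -2.12 (-1.46 without CD24+ replicate 1), and Ffar2, a receptor for short-chain fatty acids, by -1.99. None of Cxcr3, Ccr9 and Gpr183 overlapped between the subsets. Ccr7 (-0.66), which guides mature dendritic cells to T cell zones, Cxcr4 (-0.28) and S1pr1 (0.19) did not pass.

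Chemokine genes were higher in 5 of 27 and lower in 4 (median -0.11), 2 and 1 without the block, and 2 were lower without CD172a+ replicate 1 or 2. Ccl2 and Ccl7, which recruit monocytes, were higher by 1.59 and 1.90, with means of 9.06 against 7.43 and 7.74 against 5.78. Ccl9 read 4.38, 5.15 and 5.30 on the CD24+ arrays and 6.54, 6.62, 7.39 and 6.76 on the CD172a+ arrays, a difference of -1.99. The calls of Cxcl9 (2.14), Ccl22 (1.93), Ccl17 (0.62) and Ccl3 (-1.41) held with each array left out but not without the block. Cxcl9, an attractant of T cells induced by interferon gamma, read 11.68, 12.07 and 12.11 on the CD24+ arrays and 8.42, 8.48, 10.52 and 10.84 on the CD172a+ arrays. Its groups did not overlap, and its difference was 1.41 without CD24+ replicate 1. Ccl5 (-0.79), Cxcl16 (0.43) and Cxcl10 (0.24) did not pass.

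Cytokine genes were lower in 10 of 35 and higher in 4 (median -0.36), 6 and 2 without the block. The number lower was 6 without CD24+ replicate 3, and the number higher was 2 without CD24+ replicate 2, CD24+ replicate 3 or CD172a+ replicate 1. Vegfa, the vascular growth factor, read 6.14, 6.77 and 6.75 on the CD24+ arrays and 8.42, 8.10, 10.49 and 9.57 on the CD172a+ arrays, a difference of -2.81, and Il1rn, the interleukin-1 receptor antagonist, read 5.96, 6.50 and 6.53 on the CD24+ arrays and 7.52, 7.51, 8.54 and 8.63 on the CD172a+ arrays, a difference of -1.86. Both were lower on every CD24+ array. Tnfsf8, the CD30 ligand, differed by -1.27, Osm, oncostatin M, by -0.88 and Flt3l, the growth factor of dendritic cells, by -0.72. Lif was higher by 0.74. Il12b, the p40 chain of interleukin-12, read 8.89, 9.86 and 10.92 on the CD24+ arrays and 6.83, 7.01, 8.17 and 8.71 on the CD172a+ arrays, a difference of 1.96 that passed with the block (adjusted p = 0.00185) but not without it (0.0971). Ltb, lymphotoxin beta, differed by -2.17 with the same outcome (adjusted p = 0.0091 and 0.0696), or -1.45 without CD24+ replicate 1. Il1b (-0.38), Tnf (-0.98), Il12a (-0.03), Il27 (-0.04) and Tgfb1 (-0.02) did not pass.

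Of 54 cytokine and growth factor receptor genes, 9 were higher and 13 lower (median -0.14), 3 and 5 without the block. Met, the receptor for hepatocyte growth factor, was higher at 7.45, 7.07 and 7.39 on the CD24+ arrays and 3.72, 4.25, 3.79 and 4.31 on the CD172a+ arrays, a difference of 3.29. Tnfrsf21, death receptor 6, was higher by 1.28 and Acvrl1, the receptor ALK1, by 1.08. Il1r2, the decoy receptor for interleukin-1, read 6.48, 8.70 and 9.08 on the CD24+ arrays and between 10.78 and 11.53 on the CD172a+ arrays, a difference of -3.29 (adjusted p = 0.000744), or -2.55 without CD24+ replicate 1. Together with Il1rn this made 2 inhibitors of interleukin-1 lower in CD24+ cDCs, while Il1b itself did not pass. Csf3r, the receptor for G-CSF, differed by -0.74 and Il12rb2 by -0.89. Flt3, the receptor that cDCs depend on, was higher by 0.59 with the block, a call lost without CD24+ replicate 2 or 3 (adjusted p up to 0.0556) and without the block. The GM-CSF receptor genes Csf2ra (0.32) and Csf2rb (0.16), Ifnar1 (-0.13) and Il10ra (-0.04) did not pass.

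Costimulatory and coinhibitory genes were lower in 13 of 44 and higher in 7 (median -0.15), 8 and 4 without the block. Cd274, which encodes PD-L1, read 7.23, 8.65 and 8.67 on the CD24+ arrays and 10.48, 10.31, 10.08 and 9.84 on the CD172a+ arrays, a difference of -2.05 (-1.30 without CD24+ replicate 1), and Pdcd1lg2, which encodes PD-L2, differed by -1.57. Every CD24+ array read lower for both PD-1 ligands. Btla, an inhibitory receptor for HVEM, read 9.86, 9.32 and 9.25 on the CD24+ arrays and 7.79, 7.61, 7.22 and 7.78 on the CD172a+ arrays, a difference of 1.94, and Ctla4, known from regulatory T cells, read 7.12, 5.78 and 6.25 on the CD24+ arrays and 4.05, 4.29, 4.48 and 4.52 on the CD172a+ arrays, a difference of 2.09. Both were higher on each CD24+ array. Cd226 was higher by 1.32. Sh2d1b1, the SLAM adaptor EAT-2, differed by -4.16 (-3.49 without CD24+ replicate 1), the activating receptor gene Cd300ld by -3.14 and Slamf6 by -1.65. The ligand gene Cd86 read 9.91, 10.89 and 10.75 on the CD24+ arrays and 9.77, 9.33, 10.99 and 10.92 on the CD172a+ arrays, a difference of 0.06 (adjusted p = 0.877), with overlap, and Cd40 (0.06) and Icosl (-0.57) did not pass. Cd80 was lower by 0.81 with the block and did not pass without it (adjusted p = 0.76).

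Adhesion genes were higher in 13 of 51 and lower in 11 (median -0.07), 8 in each direction without the block and 10 and 11 without CD24+ replicate 1. The integrin alpha chains went both ways. Itgae, Itga8 (3.19) and Itga1 (1.32), the chain of a collagen receptor, were higher, as was Itgb1 (0.92), the beta chain that pairs with ITGA8 and ITGA1. Itgam was lower. Itga8 read 7.91, 6.91 and 7.25 on the CD24+ arrays and 4.16, 4.0, 4.23 and 4.43 on the CD172a+ arrays without overlap. Cd81, a tetraspanin, was higher at 11.42, 11.37 and 11.12 on the CD24+ arrays and 9.17, 9.61, 9.08 and 9.03 on the CD172a+ arrays, a difference of 2.13. Adgre1, a surface protein of macrophages and monocytes, read 4.65, 4.30 and 4.44 on the CD24+ arrays and 9.10, 9.38, 8.98 and 8.66 on the CD172a+ arrays, a difference of -4.50, and its relative Adgre4 differed by -3.30. Both genes are also on the monocyte list, whose summed level was higher in CD172a+ cDCs. Dscam, an adhesion molecule best known from neurons, read 3.90, 3.80 and 4.31 on the CD24+ arrays and 8.47, 8.38, 8.36 and 8.33 on the CD172a+ arrays, a difference of -4.38, Cadm3 differed by -2.05 and Pecam1 by -0.64. Itga4 (-0.07), Itgav (0.21), Itgb7 (0.15) and Icam1 (0.46) did not pass.

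Of 39 NF-kappaB and MAP kinase genes, 13 were lower and 2 higher (median -0.23), 5 and 2 without the block, and 8 were lower without CD24+ replicate 1, CD24+ replicate 3 or CD172a+ replicate 2. The Ras activators changed both ways. Rasgrp1 read 4.97, 5.90 and 6.20 on the CD24+ arrays and 7.47, 7.69, 8.14 and 8.07 on the CD172a+ arrays, a difference of -2.28, Rasgrp2 differed by -0.95 and Rasgrp3 by 1.12. Map3k8, the kinase Tpl2 of the Toll-like receptor pathway, differed by -0.70 and Map3k5, the stress kinase ASK1, by -0.93. Rela (-0.39), Rel (-0.45) and Nfkb2 (-0.23) did not pass. Of 53 tyrosine kinase, phosphatase and adaptor genes, 12 were lower and 7 higher (median -0.12), 6 and 1 without the block, and with any 1 array left out other than CD172a+ replicate 4 the number higher was 2 to 4. Syk, the kinase downstream of Fc receptors and Dectin receptors, read 7.24, 7.48 and 7.62 on the CD24+ arrays and 9.35, 9.0, 9.23 and 8.89 on the CD172a+ arrays, a difference of -1.68 (adjusted p = 0.000301). Fgr, a Src family kinase of myeloid cells, read 6.05, 5.35 and 5.95 on the CD24+ arrays and 9.16, 9.07, 7.76 and 7.70 on the CD172a+ arrays, a difference of -2.47. For both, every CD24+ array was below every CD172a+ array. Ptprc, which encodes CD45, differed by -0.77, and Ubash3b, a phosphatase that restrains Syk, was higher by 1.88.

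Phospholipase C and G protein genes were higher in 10 of 52 and lower in 7 (median 0.00), 4 and 3 without the block. The number lower was 3 without CD24+ replicate 1, 4 without CD24+ replicate 2 or 3 and 2 without CD172a+ replicate 2. Plce1, a phospholipase C that Ras proteins regulate, read 7.15, 6.91 and 6.86 on the CD24+ arrays and 4.79, 4.37, 4.83 and 4.89 on the CD172a+ arrays, a difference of 2.24, and Plcb4, a phospholipase C downstream of Gq, read 6.65, 7.0 and 6.87 on the CD24+ arrays and 5.45, 5.34, 5.68 and 5.90 on the CD172a+ arrays, a difference of 1.19. Gnb4, a G protein beta subunit, was higher by 1.73 and Pde1b, a phosphodiesterase, by 1.54. Gngt2, a gamma subunit, was lower at 6.76, 7.19 and 7.63 on the CD24+ arrays and 9.51, 9.56, 9.61 and 9.47 on the CD172a+ arrays, a difference of -2.39, and Prkcb, a protein kinase C, differed by -1.29. Plce1, Plcb4 and Gngt2 did not overlap between the subsets. Of 42 orphan and metabolite receptor genes 6 were higher and 6 lower (median -0.12), 4 in each direction without the block. The number lower was 3 without CD24+ replicate 2 or 3. The paralogs Gpr141b and Gpr141 lay on opposite sides, with Gpr141 lower by 1.44. Gpr171, an orphan receptor, read 11.25, 11.56 and 11.45 on the CD24+ arrays and 8.98, 8.60, 8.25 and 8.56 on the CD172a+ arrays, a difference of 2.85, and Gpr33, a chemoattractant-like receptor, was higher by 3.50. Hcar2, the niacin receptor, differed by -1.67.

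Proteases and inhibitors were lower in 10 of 41 and higher in 6 (median -0.08), 5 and 3 without the block. Mmp12, the macrophage elastase, read 5.27, 4.98 and 5.36 on the CD24+ arrays and 9.26, 9.87, 9.34 and 9.71 on the CD172a+ arrays, a difference of -4.33. Plaur and Plau, the receptor for urokinase and urokinase itself, were lower by 2.83 and 1.82. Plaur read 5.86, 6.91 and 6.63 on the CD24+ arrays and 9.52, 8.99, 9.61 and 8.84 on the CD172a+ arrays, with no overlap. Serpinb8, a serine protease inhibitor, was higher at 9.0, 8.60 and 8.96 on the CD24+ arrays and 4.93, 5.32, 5.54 and 5.54 on the CD172a+ arrays, a difference of 3.49, and Adam8 (1.96) and Adam19 (1.55), metalloproteases that shed surface proteins, were higher. Of 51 transporter and channel genes 8 were higher and 12 lower (median -0.13), 5 in each direction without the block. Slco3a1 (2.42), an organic anion carrier, Cacna1e (2.39), a calcium channel subunit, and Trpm2 (1.63), a channel opened by oxidative stress, were higher. Scn3a, a sodium channel subunit, read 3.65, 3.75 and 3.95 on the CD24+ arrays and 6.22, 6.82, 6.30 and 6.18 on the CD172a+ arrays, a difference of -2.58. Hvcn1, the proton channel that supports NOX2, was lower by 1.29, and Slc12a2, an ion cotransporter, by 1.91.

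Developmental pathways are given beside the 11.8% of all genes that passed. Of 35 Notch genes 5 were higher and 3 lower (22.9%, median -0.02), 2 in each direction without the block, and 2 or 3 were higher with any 1 array but CD172a+ replicate 3 left out. Rbpj was higher and Dtx1 lower, as given above. Dtx4 was higher by 0.81 and the coactivator gene Maml3 lower by 1.13. Hes1, a target of Notch, was lower by 0.67 only with the block. Of 36 TGF-beta, BMP and SMAD genes 2 were higher and 3 lower (13.9%, median -0.04), 1 and 2 without the block. Bmp2, a ligand, read 4.18, 4.13 and 4.69 on the CD24+ arrays and 7.58, 7.61, 7.13 and 7.86 on the CD172a+ arrays, a difference of -3.22 without overlap, and Smad4 was lower by 0.58. Of 35 Wnt and Hippo genes 4 were higher and 2 lower (17.1%, median -0.02), 0 and 2 without the block, and 2 were higher without any 1 of the CD24+ arrays or CD172a+ replicate 1 or 2. The lower genes were Rnf43, which removes Frizzled receptors (-1.02), and the kinase gene Gsk3b (-0.57).

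Of 48 cell cycle genes 2 were higher and 6 lower (16.7%, beside 11.8% of all genes), 0 and 2 without the block. Their median was -0.17, and 0.00 without CD24+ replicate 1 and -0.27 without CD172a+ replicate 3. Without CD24+ replicate 1 there were 3 higher and 2 lower. The number lower was 2 without CD24+ replicate 1 or 2 or CD172a+ replicate 1 or 2, and 10 without CD172a+ replicate 3. Between the sets, 10 of the 48 were lower in set 2 and 1 was higher there. Ccnd2, cyclin D2, read 6.45, 6.82 and 7.26 on the CD24+ arrays and 7.85, 8.17, 8.43 and 8.43 on the CD172a+ arrays, a difference of -1.46, and Nusap1 of the mitotic spindle differed by -0.83. Mki67, a mark of cycling cells, was lower by 0.56 with the block but not without it, nor with any of 5 arrays left out. Of 30 apoptosis genes 4 were higher and 1 lower (16.7%, median -0.05), 1 in each direction without the block, namely Casp6 (1.47), a caspase, and Pmaip1 (-0.72), the NOXA gene. Immediate-early genes that tissue digestion induces were lower in 6 of 21 (28.6%, median -0.31, and -0.03 without CD24+ replicate 1), in 1 without the block and in 3 without CD24+ replicate 2, CD24+ replicate 3 or CD172a+ replicate 2. Jun (-1.03) and Atf3 (-0.73) were among the 6 but did not pass without the block, Fos (0.30) and Dusp1 (0.07) did not pass, and 9 of the 21 were lower in set 2 than in set 1. Of 25 ribosomal protein genes 1, Rps3 (0.80), was higher with the block and none without it (median 0.13). The call of Rps3 was lost with any 1 array but CD24+ replicate 1 left out (adjusted p up to 0.156), and without CD24+ replicate 1 the number higher was 4, without CD172a+ replicate 4 it was 2.

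The lists for other cells also hold genes that differed between the subsets. Whether their signal came from cDCs or from other cells was not tested. Monocyte markers were lower in 11 of 25 and higher in 1 (median -0.64), 9 and 0 without the block, and 2 were higher without CD24+ replicate 2 or CD172a+ replicate 4. Ms4a4c, a 4-transmembrane protein gene, read 5.97, 5.11 and 5.60 on the CD24+ arrays and 10.15, 9.92, 9.08 and 9.17 on the CD172a+ arrays, a difference of -3.89, and Ms4a6c differed by -2.21. The monocyte genes Lyz2 (0.12), Ccr2 (1.16) and Plac8 (0.38) did not pass. Splenic macrophage markers were lower in 6 of 21 (median -0.43), 2 without the block and 4 to 9 with 1 array left out, with Siglec1 (-0.07), Vcam1 (-0.10) and Cd5l (-0.14) not passed. NK markers were lower in 3 of 15 and higher in 1 (median -0.04), the latter lost without the block and with any 1 array but CD172a+ replicate 4 left out. Cd7, a surface protein of lymphocytes, read 6.81, 6.23 and 7.20 on the CD24+ arrays and 10.90, 10.93, 10.21 and 9.78 on the CD172a+ arrays, a difference of -3.61. Klrd1, the CD94 chain of NK receptors, read 8.21, 7.48 and 8.41 on the CD24+ arrays and 11.31, 11.22, 10.12 and 11.13 on the CD172a+ arrays, a difference of -2.83, and Tbx21 is given above. Both Cd7 and Klrd1 were far apart between the subsets, while Ncr1 (0.16), Eomes (-0.17) and Gzmb (-0.04) did not pass.

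B cell markers were lower in 5 of 14 and higher in 1 (median -0.30), with 2 lower without the block and 3 without CD24+ replicate 2, CD172a+ replicate 2 or CD172a+ replicate 4. Cd22, an inhibitory receptor, read 6.45, 5.70 and 5.67 on the CD24+ arrays and 8.72, 8.88, 7.90 and 7.70 on the CD172a+ arrays, a difference of -2.21, and Fcrla was higher by 0.94, while Cd79a (-0.23), Ebf1 (-0.08) and Pax5 (0.04) did not pass. Of 21 pDC markers 5 were lower and 2 higher, and 4 and 1 without the block. Their median was -0.26, and -0.11 without CD24+ replicate 1 and -0.16 without CD172a+ replicate 1. Lair1, an inhibitory collagen receptor, read 6.88, 6.59 and 6.57 on the CD24+ arrays and 9.68, 9.67, 8.70 and 9.08 on the CD172a+ arrays, a difference of -2.50, and Siglech (-0.36) did not pass. T cell markers were lower in 1 of 17 (median -0.07), neutrophil markers in 2 of 15 (median -0.08) and erythroid and platelet markers in 1 of 12 (median -0.03), and none of these was higher. These are 5.88%, 13.3% and 8.33% of the members, all lower, beside 5.29% of all genes lower and 11.8% passed in either direction. Without the block 0 T cell, 1 neutrophil and 0 erythroid and platelet markers were lower. The T cell count was 0 with any 1 array but CD172a+ replicate 3 left out, with 1 higher without CD24+ replicate 2. The neutrophil count was 1 without CD24+ replicate 1 or 2 or CD172a+ replicate 1, and the erythroid and platelet count was 0 without CD24+ replicate 1 or 2 or CD172a+ replicate 1 or 2.

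Some of the widest differences belonged to genes outside these lists. Gatm, which makes the precursor of creatine, read 9.33, 8.70 and 8.97 on the CD24+ arrays and 6.62, 6.19, 6.13 and 5.94 on the CD172a+ arrays, a difference of 2.85. Mpeg1, the pore-forming protein perforin-2, read 10.95, 11.03 and 10.94 on the CD24+ arrays and 7.59, 7.40, 8.37 and 8.96 on the CD172a+ arrays, a difference of 2.78. Both were expressed on all 7 arrays and higher on every CD24+ array. P3h2, a prolyl hydroxylase of collagen, was higher by 5.07 and Fam149a by 2.60. On the other side Apobec1, a cytidine deaminase that edits mRNA, read 4.93, 6.44 and 6.44 on the CD24+ arrays and 9.38, 8.98, 9.24 and 9.40 on the CD172a+ arrays, a difference of -3.43, and Mcemp1, a membrane protein of mast cells and myeloid cells, read 5.70, 6.07 and 7.37 on the CD24+ arrays and 9.63, 9.43, 9.57 and 9.68 on the CD172a+ arrays, a difference of -3.27. Neither gene overlapped between the subsets.

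In the gene order of RefSeq GRCm38.p6 there were 51 runs of at least 3 measured neighbours that passed in 1 direction, with 6.48% of all genes higher and 5.29% lower. How many runs these shares alone would give was not worked out, so the runs are a description. Vkorc1l1, Gusb, Asl, Crcp and Tpst1 were higher in CD24+ cDCs as neighbours, and Clec4a1, Clec4a3, Clec4a4, Clec4b1 and Clec4a2 were lower. Psmb9, Tap1, Psmb8 and Tap2 of the MHC region were higher. Med12l, Gpr171, P2ry14 and a predicted gene were higher as a run, as were Ppef2, Naaa, Sdad1 and Cxcl9. Runs that were lower included Ms4a6c, Ms4a6b, Ms4a4d and Ms4a6d, the Pilra, Pilrb1 and Pilrb2 genes, and C1qa, C1qb and C1qc. Signal shared between the probe sets of related neighbours, such as the Pilr and Clec4 genes, was not checked. Within these runs some calls rest on the block on sets, as given above for Tap1, Psmb9, Cxcl9 and the C1q genes. Those of Crcp, Tpst1, Psmb8, Ppef2, Ms4a4d and Ms4a6d were lost without the block and with at least 2 of the single arrays left out, and that of Med12l without CD24+ replicate 1 or 2.

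All 2346 genes had differences of the same sign in both sets, which the fit nearly fixes. Whether the size differed between sets was tested by an interaction term, which 2 genes passed (0.01%), with 1875 at an unadjusted p below 0.05. Irf8 differed by 4.85 in set 1 and 1.92 in set 2 (adjusted p = 0.0334). Gp2, a receptor for bacterial fimbriae, read 4.89, 9.08 and 9.08 on the CD24+ arrays and 4.46, 4.55, 6.31 and 6.30 on the CD172a+ arrays, with differences of 0.39 and 2.77 (adjusted p = 0.0334). Set 1 holds 1 CD24+ array, so both differences there rest on that array. Irf4 differed by -4.44 and -2.38 (adjusted p = 0.182) and Ptgs2 by -5.36 and -3.30 (adjusted p = 0.124), and neither passed.

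**Figure D5:**
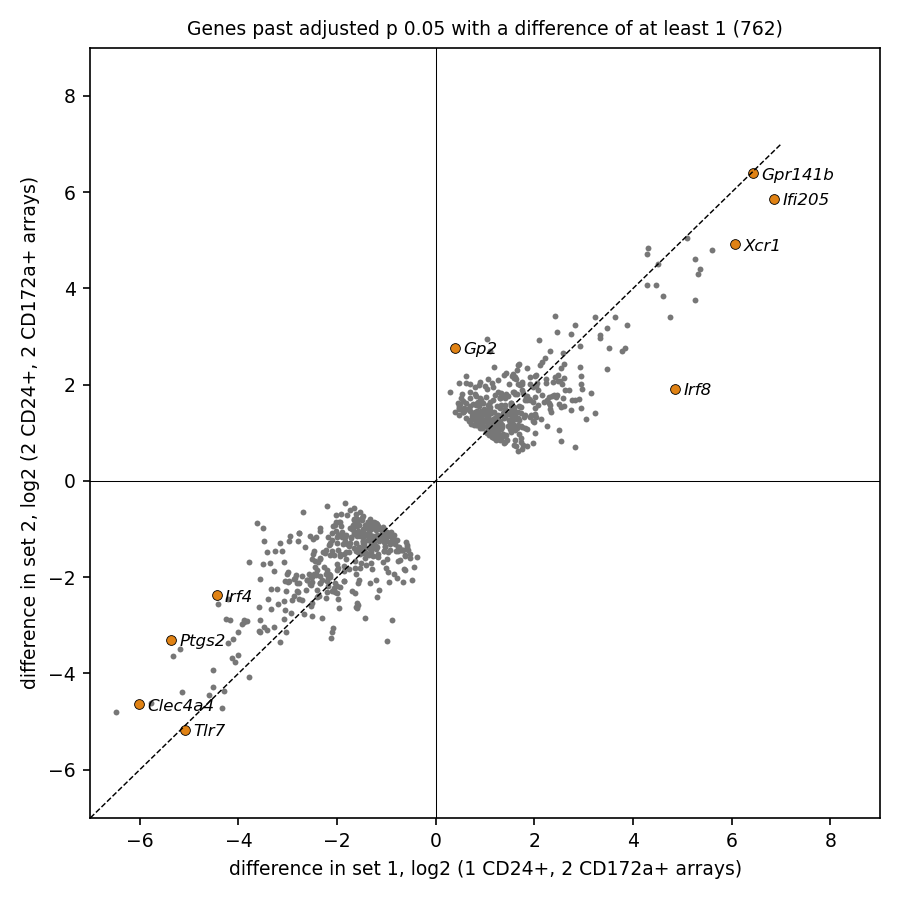
Difference between the subsets (log2) in set 1, from 1 CD24+ and 2 CD172a+ arrays, against that in set 2, from 2 arrays of each, for the 762 genes that passed with a difference of at least 1. The dashed line marks equal differences. Irf8 lies below the line (4.85 and 1.92) and Gp2 above it (0.39 and 2.77).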

How the data were processed

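The authors deposited log2 values of each probe set of Affymetrix mouse gene arrays. Per the submitters' processing notes they used RMA, a method that corrects background, sets arrays to equal quantiles and combines probes. Software version and probe filters are not given in the sources used here. Precision is limited by the number of arrays. Per the labels' protocols, RNA came from an RNAqueous-Micro kit and targets from an Ovation PicoSL kit with biotin.

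Of 30177 probe sets, 21789 had 1 gene symbol in the platform annotation, and 21698 of these matched the RefSeq table of GRCm38.p6. Of 999 genes with over 1 probe set the one with the highest mean was used. The 7 arrays were fitted with limma 3.58.1 in R 4.3.3 on subset and set, two-sided, with Benjamini-Hochberg adjustment over 19938 genes and 4 residual degrees of freedom. On simulated data 99% of 2-fold changes among 19938 genes were recovered for this comparison, with 12 false calls. The simulated noise was normal and independent, and the sets were taken as known. That run therefore checks the code and does not give the power on the real arrays. Tables and figures used Python 3.11.15 and matplotlib 3.10.9.

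The members, the 47 gene lists and the sets were chosen with earlier results of these data known. Of 1724 list memberships 1599 were measured. The result of 1 list is not reported here. Named were the 8 markers, the 12 genes with the widest difference in each direction without overlap, the same with both means above the median level, of each list the 6 members of smallest p in each direction, members that did not pass in lists of up to 40, and members of the core cDC and transcription factor lists. Named outside this rule, after their values were seen, were Casp1, Cd274, Cd40, Cd80, Cd86, Clec4e, Clec7a, Csf2ra, Csf2rb, Ctse, Dnajb11, Dnajc3, Fcgr3, Gp2, Hmgcs1, Hvcn1, Hyou1, Icam1, Icosl, Ifi203, Ifih1, Ifit1, Ifitm1, Ifitm3, Il10ra, Il12rb2, Insig1, Itga4, Itgb1, Itgb7, Ltb4r1, Npc2, Oas2, Pecam1, Psmb9, Ptprc, Srebf2, Sting1, Tapbpl, Tfeb and Tlr8. Alternatives were other blocks, array weights, an intensity trend, another normalization, another probe set summary, a filter on dim genes and leaving out each array.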

Additional observations from a re-analysis of the deposited data

Results flagged for a closer look

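The difference between the subsets itself differed between the array sets for 2 genes by the interaction term (limma, adjusted over 19938 genes). For Irf8 the difference in set 2 minus that in set 1 was -2.93 (4.85 in set 1 and 1.92 in set 2, adjusted p = 0.0334). For Gp2 it was 2.38 (0.39 and 2.77, adjusted p = 0.0334). Set 1 holds 1 CD24+ array, and the sets were read from these values. Of 42 genes checked for an array far from the others among the 4 CD172a+ arrays, 0 had one. With only 4 arrays, 2 in each set, this check could hardly find one. The CD24+ arrays were not checked in this way.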

How the results depend on the processing

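The 8 markers, among them Sirpa of the sort, kept their direction and their side of the threshold under the alternatives run. Whether more members were higher or lower turned in 11 of 47 lists under at least 1 alternative, and in 7 with 1 array left out, such as cell cycle genes (2 higher and 6 lower, but 3 and 2 without CD24+ replicate 1) and glycolysis (10 and 4, but 2 and 3 without the block). The median changed sign in 11 lists, none of them with a median beyond 0.11 in size, such as adhesion (-0.07, but 0.15 with the filter on dim genes). The number of genes passed was 2346 (1292 higher and 1054 lower) and that of list members 493. Without the block on sets these were 938 (464 and 474) and 268. Over all 11 arrays without the block they were 1277 (648 and 629) and 323, and within set 2 alone 769 (434 and 335) and 230. Asking for a difference of at least 1 gave 762 genes and 262 list members. With 1 array left out, the genes numbered 1441 to 2127, the higher ones 764 to 1146, the lower ones 661 to 1017 and list members 371 to 459. With the replicate number as a block, 748 genes (351 higher and 397 lower) and 255 list members passed, 725 of the genes among the 2346, and 5 of the 2346 had the other sign. Arrays of the same number deviated from their group means with correlations of 0.506, -0.444 and 0.241. These values follow the sets, as CD24+ and CD172a+ replicates 2 lie in different sets, and so cannot decide on pairing. Within set 2, CD24+ replicate 2 gave 0.464 and 0.323 with CD172a+ replicates 3 and 4, and CD24+ replicate 3 gave 0.241 and 0.488. Whether samples within a set were paired was not tested. With the mean of the probe sets of a gene 1 of the 2346 changed sign. Of 400 genes followed singly, 358 had passed. Of these, 129 lost their call without the block, 135 with the replicate number as a block and 159 within set 2 alone. With 1 array left out 31 to 60 lost it, and none changed direction where called. The other alternatives gave 2191 to 3080 genes. With 3 and 4 arrays a group, and 1 CD24+ array in set 1, small differences are beyond the precision of these data.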
